A study of Homo sapiens with 6 samples.

Results

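The complement system is a cascade of blood and tissue proteins that marks cells and microbes for destruction. The 9 genes described here are C3, CFB, CFI, C1R, C1S, CD46, CD55, CD59 and SERPING1, which encode components of the cascade and the regulators that hold it back. They were chosen by gene symbol, with for each the probe set of a single gene that had the highest mean signal, and are 9 of 18417 genes tested. The series measured RNA on Affymetrix arrays in stable cells made from A549, a line grown from a human lung adenocarcinoma. All 6 samples had gone without serum overnight before 48 h of VP-16 (etoposide), which traps topoisomerase II on broken DNA. The 3 control samples carry the genotype label control. The 3 others are labelled H2AX knockdown, also called P1, and H2AX is a histone variant whose phosphorylation marks broken DNA. The question is which genes differ with the labelled genotype under the drug, and no untreated sample was analysed here. The labels used here give neither the knockdown method nor how many stable lines were made. The design text speaks of independent experiments. If each group came from 1 line, p-values cover only how experiments vary.

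Complement can be started in several ways, and all of them meet at C3. In the classical route C1q binds a target and the proteases C1r and C1s cut the next components, and SERPING1 encodes C1 inhibitor, which blocks those proteases. Cleaved C3 joins factor B, the product of CFB, to form an enzyme that cleaves more C3. Factor I, the product of CFI, inactivates the deposited fragments with the help of cofactors such as CD46. Nucleated cells, tumour cells included, protect themselves with CD46, with CD55, which speeds the decay of the C3-cleaving enzymes, and with CD59, which blocks the terminal pore. Lung epithelial cells make several of these proteins, and C3 and CFB are known as acute-phase genes that answer to inflammatory cytokines.

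No complement gene changed past the threshold (limma adjusted p under 0.05, 0 of 9, against 0.0326% of all genes, 0.0271% lower and 0.00543% higher). In the knockdown-labelled arrays 8 of the 9 genes were below the control mean, against 51.5% of all genes, and CFI was above it, by no more than 0.44 on the log2 scale in either direction. At an unadjusted p under 0.05 CD55 and CD59 were lower and CFI higher, 3 of 9 genes, against 12.2% of all genes (8.38% lower and 3.78% higher). The median log2 difference, knockdown-labelled minus control, was −0.32, against −0.01 over all genes tested. Bright genes as a class read lower too. Of the 9 genes, 7 lay in the brightest of 5 equal bins of genes by mean signal. The median of that bin was −0.25, and 85.3% of its genes were below 0, against 18.3% in the dimmest bin. The plot of complement genes among all genes tested shows this shift.

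**Figure D1:**
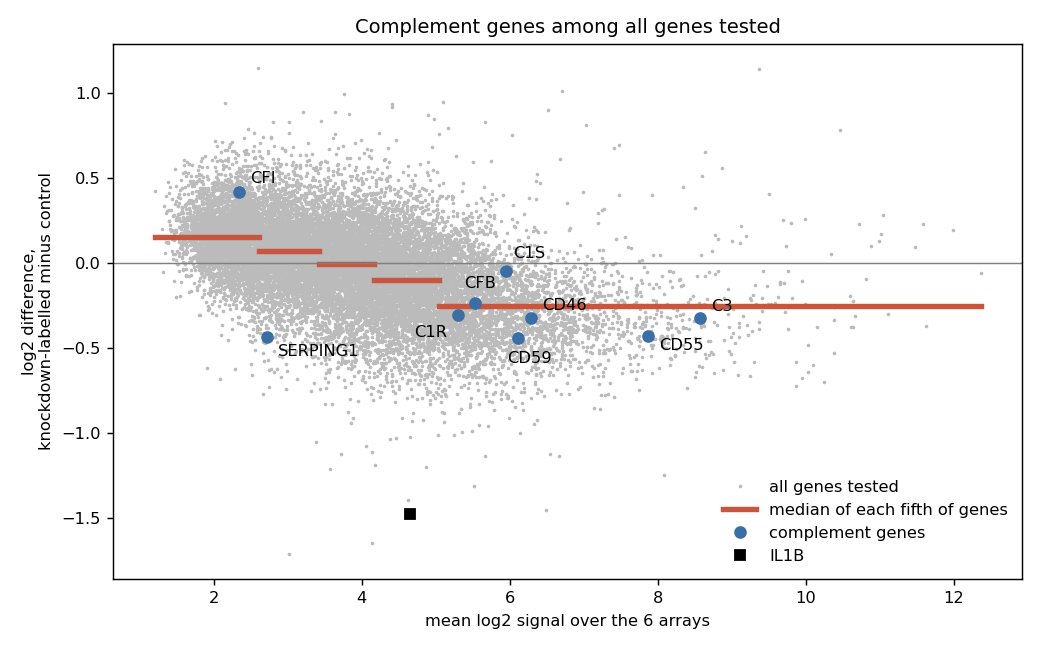
Log2 difference, knockdown-labelled minus control, against mean log2 signal over the 6 arrays for all 18417 genes (grey), with the 9 complement genes in blue, IL1B as a black square and the median of each of 5 bins as a red line. Bin medians fall from 0.15 in the dimmest to −0.25 in the brightest bin, and 7 complement genes lie in the brightest bin at −0.05 to −0.44.

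The promoters of the genes on which the text turns were searched for motifs after IL1B, a cytokine gene, was seen lower in the knockdown-labelled arrays on the deposited scale. Among members with an entry, CFB had the most of the motifs searched. Any link between IL1B and these genes was not tested. The set of promoter sequences used here (GRCh38.p14) held entries for 6 of the 9 genes. It had none for C3, C1S and SERPING1, which are themselves annotated in RefSeq. The 250 bases before the outermost annotated start are printed 5′ to 3′ on the gene's strand, with motif matches in capitals.
CFB promoter, chr6:31945845-31946094, + strand: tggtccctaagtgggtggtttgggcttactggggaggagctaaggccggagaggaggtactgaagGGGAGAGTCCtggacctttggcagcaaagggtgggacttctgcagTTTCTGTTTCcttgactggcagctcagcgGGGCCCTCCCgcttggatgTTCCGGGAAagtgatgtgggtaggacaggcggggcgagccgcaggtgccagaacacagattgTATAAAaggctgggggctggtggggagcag
CD55 promoter, chr1:207321428-207321677, + strand: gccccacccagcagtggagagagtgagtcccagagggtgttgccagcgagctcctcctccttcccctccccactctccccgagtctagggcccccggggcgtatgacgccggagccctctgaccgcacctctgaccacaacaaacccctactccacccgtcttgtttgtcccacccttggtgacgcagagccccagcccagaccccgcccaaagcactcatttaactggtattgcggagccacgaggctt
CD59 promoter, chr11:33736480-33736729, - strand: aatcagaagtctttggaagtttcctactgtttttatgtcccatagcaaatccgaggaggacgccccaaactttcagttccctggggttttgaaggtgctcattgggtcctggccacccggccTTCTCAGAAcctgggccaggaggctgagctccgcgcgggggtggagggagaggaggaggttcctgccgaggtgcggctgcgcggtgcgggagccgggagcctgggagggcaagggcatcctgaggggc
CFI promoter, chr4:109802000-109802249, - strand: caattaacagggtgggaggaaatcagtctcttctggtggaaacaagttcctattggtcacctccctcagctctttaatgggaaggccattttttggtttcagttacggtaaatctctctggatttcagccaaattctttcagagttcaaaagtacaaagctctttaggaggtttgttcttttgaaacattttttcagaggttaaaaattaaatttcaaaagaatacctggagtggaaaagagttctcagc

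Capitals mark matches, on either strand, to an NF-kB-type motif (GGGA, any 4 bases, CC), a STAT-type motif (TTCNNNGAA), an interferon-stimulated-type motif (GAAA, any 2 bases, GAAA), a C/EBP-type motif (TTGCNNAA) and TATAAA. The CFB window held 2 matches of the first kind, 1 of the second, 1 of the third and a TATAAA ending 25 bases before the start. These motifs are found in 22.6%, 6.57%, 3.02% and 10.7% of the 35116 promoter windows of this length. The CD59 window held 1 STAT-type match (TTCTCAGAA), and those of CD55 and CFI held none of the 5. A wider NF-kB-type pattern (GGG, any 5 bases, CC), which takes in the first motif and is not capitalised, matched 4 times in the CFB window, once in that of CD55 and not in the others printed, and 54.4% of windows hold it. Of the members not printed, C1R had 1 match to TTGCNNAA (found in 9.05% of windows) before its outermost start, and CD46 had 3 matches to the wider NF-kB-type pattern there and none to the 5 others. C1R, CD46 and CD59 have further annotated starts, whose windows are not printed. Matches in those windows included 1 each to the NF-kB-type, STAT-type and C/EBP-type motifs for C1R, and 2 to the C/EBP-type motif for CD59. A match is a run of letters and not a measured binding site.

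C3 is the central component on which all routes meet, and its mean signal ranked at percentile 99.3 of all genes. The log2 signal of its probe set (8033257, Entrez gene 718) was 8.95, 8.45 and 8.80 in control replicates 1, 2 and 3, and 7.92, 8.66 and 8.65 in knockdown-labelled replicates 1, 2 and 3. Knockdown-labelled replicate 1 lay below every other array, and the remaining 2 lay inside the range of the controls. The difference was −0.33 ± 0.22 (SE; 95% interval −0.79 to 0.14; limma adjusted p = 0.551), from 8.73 ± 0.26 to 8.41 ± 0.42 (SD, n = 3 each). It was −0.08 without knockdown-labelled replicate 1, and 0.03 without both replicates numbered 1, an alternative chosen after seeing the data. The C3 transcript was thus not seen to differ beyond the spread between arrays.

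Factor B, which pairs with C3 in the alternative pathway, gave different answers by probe set. CFB has 3 single-gene probe sets on this array, and the gene lies in the major histocompatibility complex. The probe set with the highest mean (8179351, Entrez gene 629) read 5.93, 5.56 and 5.44 in control replicates 1 to 3 and 5.02, 5.35 and 5.88 in knockdown-labelled replicates 1 to 3. These groups overlapped, with knockdown-labelled replicate 3 above 2 of the controls. The difference was −0.23 ± 0.22 (SE; 95% interval −0.71 to 0.24; limma adjusted p = 0.678), and 0.11 without both replicates numbered 1.

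The other 2 CFB probe sets read lower in every knockdown-labelled array. Probe set 8118345 read 5.65, 5.34 and 5.59 in the controls and 4.66, 4.86 and 5.27 in the knockdown-labelled arrays, in the order of replicates. Probe set 8178115 read 5.87, 5.52 and 5.76 in the controls and 4.85, 5.05 and 5.48 in the knockdown-labelled arrays. In both the groups did not overlap, though the gap between knockdown-labelled replicate 3 and control replicate 2 was small. Of all genes tested, 9.82% were lower with no overlap. Tested among all 19460 single-gene probe sets, the differences were −0.60 ± 0.19 and −0.59 ± 0.19 (SE), with limma adjusted p of 0.3 and 0.31. After quantile normalization they were −0.46 and −0.44, and after cyclic loess −0.43 and −0.39, where the difference of the brightest probe set was −0.08 and −0.03. Without both replicates numbered 1 they were −0.40 and −0.38, with unadjusted limma p of 0.077 and 0.097. The 2 probe sets differed from each other by a nearly constant −0.22 to −0.17 over the 6 arrays, so they cannot be counted as independent readings. With the 3 probe sets averaged, these 2 both included, CFB was at −0.47 (limma adjusted p = 0.368). These 2 probe sets were singled out after their values were seen, and neither passed the threshold.

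**Figure D2:**
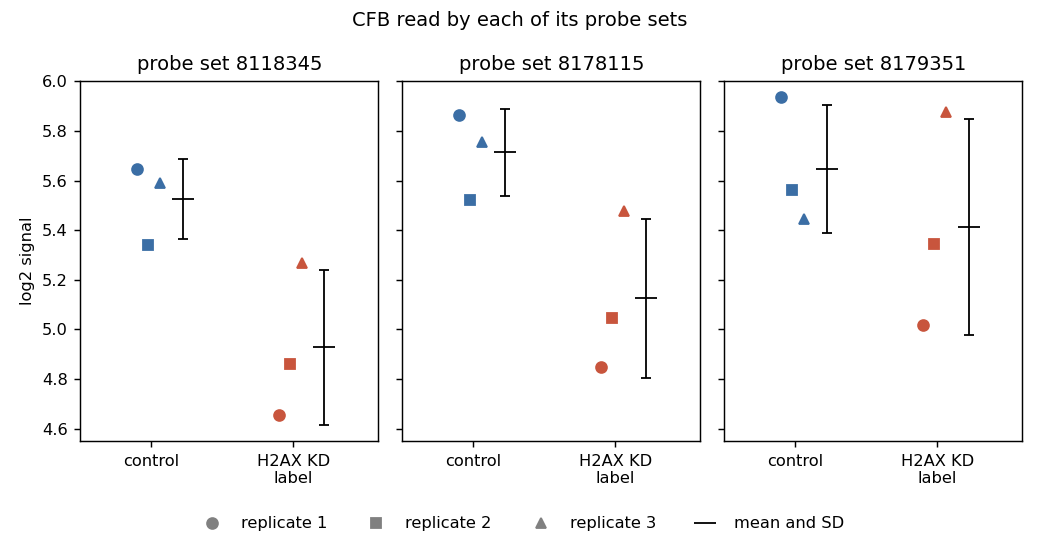
Log2 signal of CFB in each array by probe set (one panel each, shared axis), with control arrays in blue, knockdown-labelled arrays in red, and black bars for the mean and SD of 3 arrays. Probe sets 8118345 and 8178115 separate the groups, with differences of −0.60 and −0.59, and probe set 8179351 does not, with knockdown-labelled replicate 3 at 5.88.

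C1R and C1S encode the paired proteases of the first component, and they are neighbours on chromosome 12 in GRCh38.p14. C1R (probe set 7960744, Entrez gene 715) read 5.62, 5.27 and 5.46 in control replicates 1 to 3 and 5.14, 5.01 and 5.27 in knockdown-labelled replicates 1 to 3. The groups touched, since knockdown-labelled replicate 3 stood just above control replicate 2. The difference was −0.31 ± 0.17 (SE; 95% interval −0.66 to 0.05; limma adjusted p = 0.464). C1S (probe set 7953603, Entrez gene 716) read 6.13, 5.79 and 5.99 in the controls and 5.93, 5.76 and 6.08 in the knockdown-labelled arrays. These ranges nearly coincided. The difference of C1S was −0.05 ± 0.17 (SE; 95% interval −0.41 to 0.32; limma adjusted p = 0.928), and it lay above 0 after quantile normalization (0.17) and cyclic loess (0.20). C1RL, a related protease gene next to C1R, was at −0.22 (limma adjusted p = 0.62). Whether C1R and C1S differ from each other in their response was not tested.

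The soluble regulators both had dim signals and opposite signs. CFI, which encodes the protease that inactivates C3b and C4b, was the only one of the 9 with a value above 0 on the deposited scale. Its probe set (8102328, Entrez gene 3426) read 2.20, 2.05 and 2.14 in control replicates 1 to 3 and 2.67, 2.47 and 2.50 in knockdown-labelled replicates 1 to 3, with no overlap. The difference was 0.42 ± 0.16 (SE; 95% interval 0.08 to 0.76; limma adjusted p = 0.343). Its mean signal ranked at percentile 13.1 of all genes, in the dimmest bin, where the median difference of all genes was 0.15, and whether so dim a signal reports CFI transcript could not be read from these values. After quantile normalization the difference was 0.26 and after cyclic loess 0.27.

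SERPING1 (probe set 7940028, Entrez gene 710), the gene of C1 inhibitor, read 2.84, 3.38 and 2.61 in control replicates 1 to 3 and 2.88, 2.70 and 1.94 in knockdown-labelled replicates 1 to 3. Knockdown-labelled replicates 1 and 2 lay inside the range of the controls and replicate 3 far below it. The difference was −0.44 ± 0.25 (SE; 95% interval −0.98 to 0.10; limma adjusted p = 0.491), while its signal bin had a median of 0.07. SERPING1 had the widest spread of the 9, with an SD of 0.39 in the controls and 0.50 in the knockdown-labelled arrays (n = 3 each). With single arrays left out its difference ran from −0.63, without knockdown-labelled replicate 1, to −0.16, without knockdown-labelled replicate 3. It was −0.22 without control replicate 2, and −0.68 without both replicates numbered 1.

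The membrane regulators CD46, CD55 and CD59 were all below 0, and 0 of the 3 passed the threshold. CD55, the decay-accelerating factor (probe set 7909332, Entrez gene 1604), read 8.30, 7.98 and 7.96 in control replicates 1 to 3 and 7.60, 7.55 and 7.81 in knockdown-labelled replicates 1 to 3. Every knockdown-labelled array lay below every control. The difference was −0.43 ± 0.17 (SE; 95% interval −0.79 to −0.07; limma adjusted p = 0.36), or 1.34-fold lower, from 8.08 ± 0.19 to 7.65 ± 0.14 (SD, n = 3 each). It was −0.20 after quantile normalization, −0.17 after cyclic loess and −0.29 without both replicates numbered 1.

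CD59, the inhibitor of the terminal pore (probe set 7947425, Entrez gene 966), read 6.58, 6.00 and 6.42 in control replicates 1 to 3 and 5.69, 5.93 and 6.06 in knockdown-labelled replicates 1 to 3. The groups overlapped through control replicate 2 and knockdown-labelled replicate 3. The difference was −0.44 ± 0.19 (SE; 95% interval −0.85 to −0.04; limma adjusted p = 0.383), and −0.22 after quantile normalization. CD46, the cofactor for factor I (probe set 7909400, Entrez gene 4179), read 6.73, 6.32 and 6.29 in the controls and 6.11, 5.76 and 6.50 in the knockdown-labelled arrays. Knockdown-labelled replicate 3 stood above 2 of the controls. The difference of CD46 was −0.32 ± 0.21 (SE; 95% interval −0.77 to 0.12; limma adjusted p = 0.534), and −0.10 after quantile normalization.

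**Figure D3:**
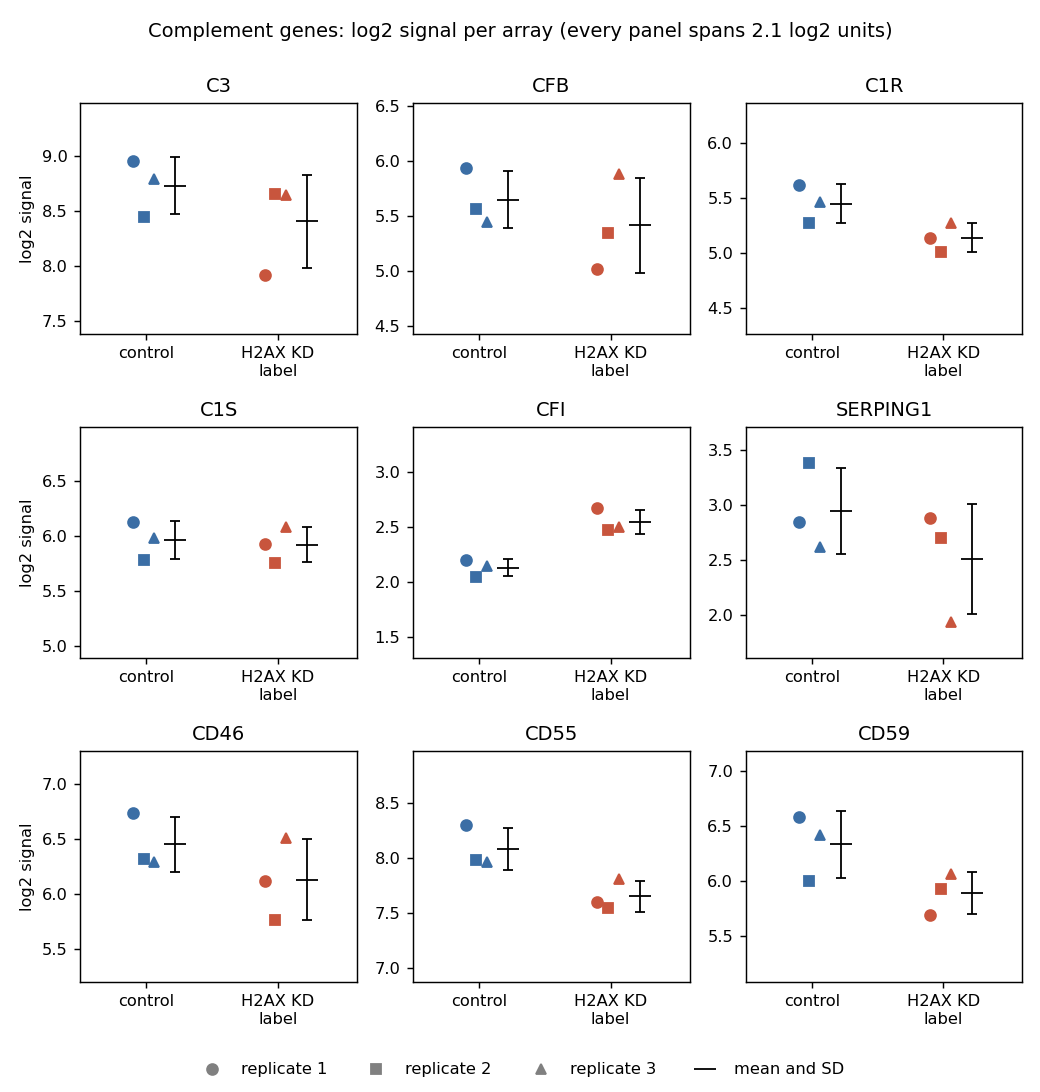
Log2 signal of each complement gene in each array, one panel per gene with its own axis position and an equal span, control in blue and knockdown-labelled in red, replicates by marker shape, black bars for mean and SD of 3 arrays. CD55 and CFI show no overlap between the groups, and the low mean of C3 comes with replicate 1 at 7.92.

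The groups did not overlap for 2 of the 9 genes, CD55 (lower) and CFI (higher), against 17% of all genes (9.82% lower and 7.17% higher). The knockdown-labelled arrays were not alike in the complement genes. Replicates 1 and 2 each lay below every control for 6 genes, and replicate 3 for 2, CD55 and SERPING1. The 6 were C3, CFB, C1R, CD46, CD55 and CD59 in replicate 1, and C1S took the place of C3 in replicate 2. All 3 arrays lay above every control for CFI. How many of all genes lay outside the controls in each array was not counted, so these counts cannot be read as particular to complement genes. Against the control mean the median of the 9 genes was −0.33, −0.30 and −0.08 in knockdown-labelled replicates 1, 2 and 3, and it was 0.22, −0.13 and 0.01 in the control replicates. For all genes of the brightest bin these medians were −0.45, −0.15 and −0.13, and 0.14, −0.15 and 0.01, so control replicates 1 and 2 stood on the same sides of 0 for the complement genes as for bright genes at large. The part of this shift in the differences was not tested.

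Quantile normalization left 7 of the 9 genes below 0 (median −0.13), and cyclic loess 7 (median −0.10), with 0 past the threshold in each (limma, 1 at an unadjusted p under 0.05, SERPING1, in each). Without both replicates numbered 1, which sat at opposite ends of the first principal component, 5 of the 9 were below 0. The differences of CD46, CD55, CD59, C1R and SERPING1 were below 0, and that of CFI above 0, in each alternative in which the gene was tested. Set against the median of their signal bin, the 7 bright genes lay between −0.19 (CD59) and 0.21 (C1S), and 5 of the 7 were lower than it. The plot of differences with both normalizations shows how far each gene moved.

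**Figure D4:**
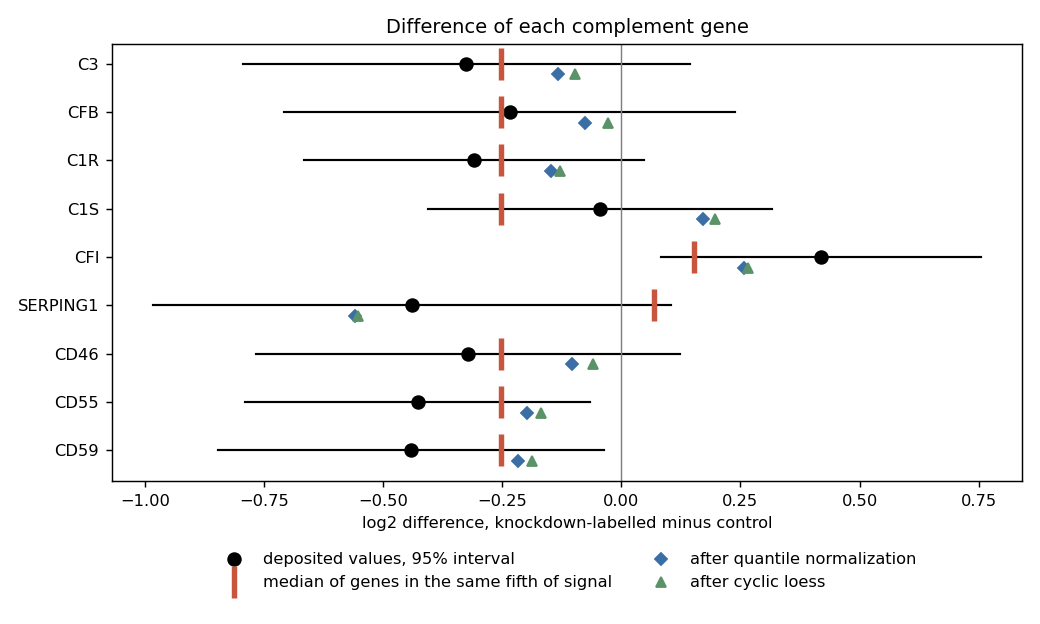
Log2 difference, knockdown-labelled minus control, of each complement gene (black point, with the 95% interval of the limma fit), the median of all genes in the same of 5 signal bins (red bar), and the difference after quantile normalization (blue) and cyclic loess (green). The intervals of CD55, CD59 and CFI leave out 0 before adjustment, and after either normalization every gene except SERPING1 and C1S lies nearer to 0.

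The intervals, not adjusted for the number of genes, bound how large a change in signal these arrays could have hidden, on the deposited scale and with all 6 arrays. For the dim SERPING1 and CFI they do not bound a change in transcript, since signal over background could not be read. With the chosen probe set of each of the 9 genes the lowest bound was −0.98, that of SERPING1, which allows a fall of up to 1.98-fold in signal, and the highest was 0.76, that of CFI. The other 2 CFB probe sets had lower bounds of −1.003 and −1.0001. The cytokine gene IL1B, an inducer of acute-phase genes, was the one called gene among 14 measured of 15 listed inducers of complement genes and their mediators. It read 5.68, 5.17 and 5.33 in the controls and 3.79, 3.72 and 4.24 in the knockdown-labelled arrays, a difference of −1.48 (95% interval −1.89 to −1.06; limma adjusted p = 0.016). The call, followed under the alternatives after seeing the data, held in 8 of 16, with differences of −1.64 to −1.27. It was lost after quantile normalization (limma adjusted p = 0.058) and cyclic loess (0.084), and without both replicates numbered 1 (0.36). With single arrays left out it held only without knockdown-labelled replicate 3 (0.0081), and was lost without control replicates 1, 2 and 3 (limma adjusted p = 0.172, 0.058 and 0.098) and without knockdown-labelled replicates 1 and 2 (0.054 and 0.143). On the deposited scale the intervals of the 9 complement genes lie wholly above the upper end of the interval of IL1B. After quantile normalization SERPING1 was at −0.56 ± 0.25 and IL1B at −1.40 ± 0.18 (SE), and intervals on that scale were not compared. The difference between the genes was not itself tested. Others of that list at an unadjusted p under 0.05 were IL1A (−1.12), IL6 (−0.82) and NFKB1 (−0.70), with limma adjusted p of 0.074, 0.192 and 0.289. That is 4 of 14, all lower, against 12.2% of all genes and 8.38% lower. The 10 others ran from −0.43 for IL6ST and −0.37 for STAT3 to 0.29 for IL6R. The list had 11 of 14 below 0 with a median of −0.23, against −0.01 over all genes. Of the 14, 6 lay in the brightest of the 5 signal bins, where the median was −0.25 and 85.3% of genes were below 0. The part of that shift in the list was not tested.

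Of 50 other complement genes listed, 44 were measured by a single-gene probe set and 0 passed the threshold in limma. At an unadjusted p under 0.05 there was 1 of the 44 lower and 1 higher, against 12.2% of all genes (8.38% lower and 3.78% higher). Their median difference was 0.07, with 33 above 0, and 29 of the 44 lay in the dimmest 2 of the 5 bins. C5, which starts the terminal pore, was lower at an unadjusted p under 0.05. It read 4.27, 3.90 and 3.998 in control replicates 1 to 3 and 3.39, 3.60 and 3.58 in knockdown-labelled replicates 1 to 3, with no overlap. The difference was −0.54 ± 0.17 (SE; 95% interval −0.89 to −0.18; limma adjusted p = 0.289), in a signal bin with a median of −0.01. C8B, a subunit of that pore, was at 0.40 (limma adjusted p = 0.365), with a mean signal ranked at percentile 15.0 of all genes.

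By role, the terminal genes from C5 to C9 had 2 of 7 below 0, and the genes that start the classical and lectin routes had 3 of 14 below 0, with a median of 0.09. Other regulators had 1 of 10 below 0 and receptors and C1q-binding proteins 4 of 11. Only 3 of the 44 lay in the brightest bin, and they are named for that reason and after their values were seen. CLU, a chaperone that also inhibits the terminal pore, was at 0.00 (95% interval −0.39 to 0.39), and VTN, or vitronectin, another such inhibitor, at 0.00 (−0.44 to 0.45). C1QBP, a mainly mitochondrial protein that can bind C1q, was at −0.32 (−0.73 to 0.08). The limma adjusted p was 0.998, 0.994 and 0.5 in that order.

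**Figure D5:**
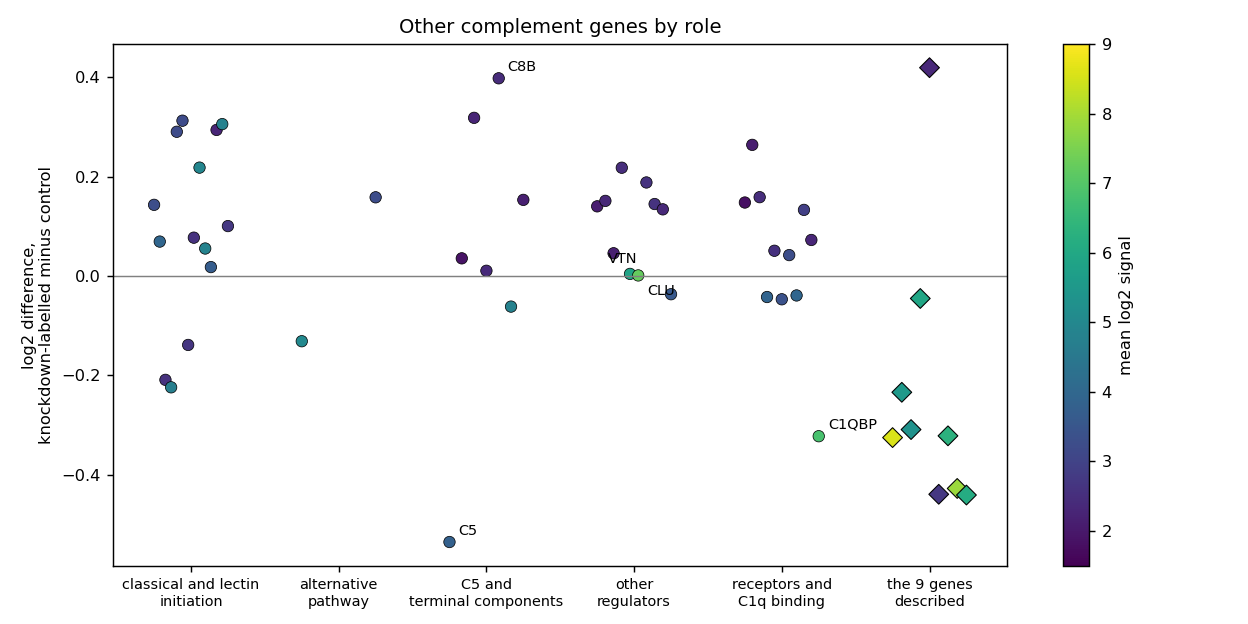
Log2 difference, knockdown-labelled minus control, of 44 other complement genes by role (circles) and of the 9 genes described (diamonds), coloured by mean log2 signal. C5 at −0.54 and C8B at 0.40 are the lowest and highest circles, and most circles above 0 are dim.

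Genome neighbours shared a sign in 1 of the 3 clusters looked at, that of C1S (−0.05), C1R (−0.31) and C1RL (−0.22). CD55 and CD46 stand in the cluster of complement regulators on chromosome 1, which runs C4BPB, C4BPA, CD55, CR2, CR1, CR1L, CD46 in GRCh38.p14. Of its measured genes CD55 and CD46 were at −0.43 and −0.32, and C4BPB, C4BPA, CR2 and CR1 at 0.15, 0.14, 0.26 and 0.15, none past the threshold. The mean log2 signals of these last 4 were 1.82 to 2.34, in the dimmest of the 5 bins, where the median of all genes was 0.15. C2, the classical counterpart of factor B and close to CFB on chromosome 6, was at 0.29 (limma adjusted p = 0.526) with a mean log2 signal of 3.22.

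The genes most like C3 over the 6 arrays were TSPYL1, ARPC1B, SCAMP3, CYFIP2 and SAP130. The measure was the root mean square distance between log2 profiles centred on each gene's mean, and it ran from 0.03 to 0.04 for these 5. Each of them read lowest in knockdown-labelled replicate 1 and highest in control replicate 1, as C3 did, which follows from how they were picked. Of the other complement genes described, CD59 was nearest to C3, at rank 1150 of all genes by this distance, followed by CFB at rank 2612, and SERPING1 was farthest, at rank 17465.

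The series as a whole sets limits on these values. The targeted gene, H2AX, showed no fall in the arrays that carry its label, at 5.21 ± 0.09 in the controls and 5.31 ± 0.16 in the knockdown-labelled arrays (log2 signal, SD, n = 3 each; exact permutation test, 2-sided, p = 0.4, where 3 against 3 arrays allow no less than 0.1), so every direction is that of the label and not of a measured loss. Of 7 epithelial markers 4 lay in the brightest of the 5 signal bins, KRT7, KRT8, KRT18 and CDH1, while the mean log2 signals of KRT19, CLDN4 and EPCAM were 4.39, 3.77 and 2.50. Fibroblast markers, listed since fibroblasts make C1R, C1S and SERPING1, were above 0 in 12 of 12 genes with 0 past the threshold, and their summed linear signal was 127 to 150 in the controls and 149 to 183 in the knockdown-labelled arrays. Liver markers were above 0 in 7 of 8, with sums of 67.3 to 72.8 and 82.9 to 95.8, while ALB had a mean log2 signal of 2.05. The rise of these sums leans on FGB, at 0.92 the largest difference among the 8, whose median was 0.16. Blood and immune markers (8 of 11 above 0) summed to 562 to 695 and 421 to 522, of which CD68, at a mean log2 signal of 8.70, made the larger part, and PTPRC was at 2.13. Endothelial markers (4 of 5 above 0) summed to 36.4 to 41.6 and 37.6 to 42.8. In the dimmest 2 of the 5 bins lay 7 of 12 fibroblast, 5 of 8 liver, 7 of 11 blood and immune and 4 of 5 endothelial markers. Of all genes, 18.3% in the dimmest bin and 36.1% in the next were below 0. No detection call was made on any probe set, and the part of other cell types in the complement values was not tested.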

How the data were processed

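RNA of 6 A549 samples was measured on Affymetrix arrays. The deposited values are log2 signals of 33297 probe sets, which the authors obtained by RMA (named in the submitters' processing notes). Its version, annotation and genome build are not given in the sources used here. Their log2 scale was read from the values (0.611 to 13.2), and RMA as usually run compresses differences of dim probe sets. Probe sets with 1 gene in the platform annotation (19460) were named, and those with several (1754) or none (12083) were not used. The probe set with the highest mean was kept for each of 18417 genes, with no filter on low signals. The 2-sided test was limma 3.58.1 in R 4.3.3 (lmFit, eBayes), with p-values adjusted over all genes by Benjamini-Hochberg and called under 0.05. The procedure was tested on simulated data. The number of arrays limits the precision. Standard errors and 95% intervals come from that fit and are not adjusted. Cyclic loess used 5 iterations. Promoters were searched over 250 bases with 6 motifs. Figures were drawn with matplotlib 3.10.9.

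The members, gene lists and motifs were chosen with earlier results of these data known. The genes named are the 9 members, H2AX, other complement genes past the threshold or else up to 4 per direction at an unadjusted p under 0.05, listed inducers at such a p, and the 5 genes most like C3. Others are said to be chosen after their values were seen, or are marker genes.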

Additional observations from a re-analysis of the deposited data

How the results depend on the processing

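No complement gene of the 9, and none of the 44 others, passed the threshold in limma under any of the 16 alternatives run. At an unadjusted p under 0.05 there were 1 to 5 of the 9, and the count over all genes moved too. The 5 came without knockdown-labelled replicate 3, where 2928 of 18417 genes were at such a p. With array weights 4 of the 9 stood beside 3592 genes, and without knockdown-labelled replicate 2, 1 beside 2296. The count of all genes past the threshold, 6, was 16 among genes above the median signal, 3 with the probe sets of a gene averaged and 191 with array weights. It was 0 after quantile normalization (1495 at an unadjusted p under 0.05), cyclic loess (1511) or without both replicates numbered 1 (876). It ran from 0 to 9 with single arrays left out. The median of the 9 genes moved from −0.32 to −0.13 after quantile normalization and −0.10 after cyclic loess, and the cause was not tested. Of 144 values of single genes under alternatives 7 turned sign. C1S was above 0 after quantile normalization (0.17), cyclic loess (0.20) and without both replicates numbered 1 (0.034), and ran from −0.14 to 0.037 with single arrays left out. Without both replicates numbered 1, C3 was at 0.029 and CFB at 0.11. The alternative without both, and the other CFB probe sets, were chosen after seeing the data. With the replicate number as a block 3 genes passed, 0 of them complement genes. The deviations of same-numbered arrays had correlations of −0.31, −0.02 and 0.07, and control replicate 1 correlated best with knockdown-labelled replicate 3 (0.37). These deviations were taken from each group's own mean of 3 arrays, so the correlations cannot show whether same-numbered arrays came from the same experiment. The labels do not say that equal numbers mark pairs. Signal over background could not be read, which limits CFI and SERPING1.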

Other observations

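C4A and C4B, which encode the component that C1s cleaves, were read by 3 probe sets annotated to both and to C4B_2, so they stood outside the genes tested. These probe sets held the same values, 2.92, 3.19 and 3.19 (log2 signal) in control replicates 1 to 3 and 3.46, 2.97 and 3.03 in knockdown-labelled replicates 1 to 3. The groups overlapped, with a difference of 0.05.

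The 3 CFB probe sets kept unequal distances over the arrays. Probe set 8118345 lay 0.17 to 0.22 below 8178115 in all 6 arrays. Probe set 8178115 differed from 8179351 by −0.07, −0.04 and 0.31 in control replicates 1 to 3 and by −0.17, −0.30 and −0.40 in knockdown-labelled replicates 1 to 3, on the log2 scale. What probe set 8179351 reads apart from the other 2 was not tested.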
